A study of Mus musculus with 11 samples.

Results

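The genes described here are the nuclear genes for respiratory complexes II, III, IV and V in RPE/choroidal tissue of mice. They were found by symbol in a table of read counts: the Sdh genes, the Uqcr genes, Cyc1, Cycs, the Cox genes whose names go on with a digit, and the Atp5 genes. The rule matched 56 of 14602 genes. Of these, 6 belong to complex II, 8 to complex III, 23 to complex IV and 16 to complex V, and Cycs codes for the carrier between complexes III and IV. The last 2, Cox4nb and Atp5sl, share only the letters of their symbols and code for no subunit of these complexes. All 11 libraries were made from C57BL/6J mice, which carried no engineered allele and were 12 months old at collection. The 5 laser treated libraries came from mice given the 2RT nanosecond laser when 9 months old, which then recovered for 3 months. The 6 naïve control libraries came from untreated mice of the same age. The labels do not tie single libraries to single animals, so the p-values measure only the spread between these libraries.

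The respiratory chain passes electrons to oxygen and stores the energy as a proton gradient across the inner mitochondrial membrane. Complex II, succinate dehydrogenase, feeds electrons from the citric acid cycle into the chain and pumps no protons. Complex III passes them to cytochrome c, complex IV passes them on to oxygen, and complex V, the ATP synthase, lets the protons flow back and makes ATP. The RPE relies heavily on its mitochondria, since it leaves much of the glucose it takes up to the photoreceptors. Complexes III, IV and V also hold subunits coded by mitochondrial DNA, whereas complex II is made entirely from nuclear genes.

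In the laser treated libraries the members of complexes III, IV and V were lower as lists, and those of complex II were not. The median log2 fold change was -0.05 for complex II, -0.30 for complex III, -0.30 for complex IV and -0.36 for complex V, beside -0.02 over all genes. Short transcripts were lower throughout the table, and with a trend on transcript length taken out the 4 medians were -0.04, -0.04, -0.06 and -0.08. None of the 56 members passed an adjusted p of 0.05 in edgeR's quasi-likelihood test, and neither did any other gene of the table (0%). At an unadjusted p under 0.05, 16 members were lower after laser and 1, Uqcrc1, was higher, against 7.68% and 8.24% of all genes. A total of 42 members had a log2 fold change under 0, against 51.5% of all genes. DESeq2, a second tool on the same counts, called 7 members at an adjusted p under 0.05, all lower, beside 3.49% of the genes to which it gave an adjusted p. These were Uqcrb, Cox5a, Cox7b, Cox11, Atp5f1, Atp5j and Atp5g3. In no member did the groups separate completely, although every laser treated library lay below every naïve control library in 0.863% of all genes and above it in 1.4%.

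**Figure D1:**
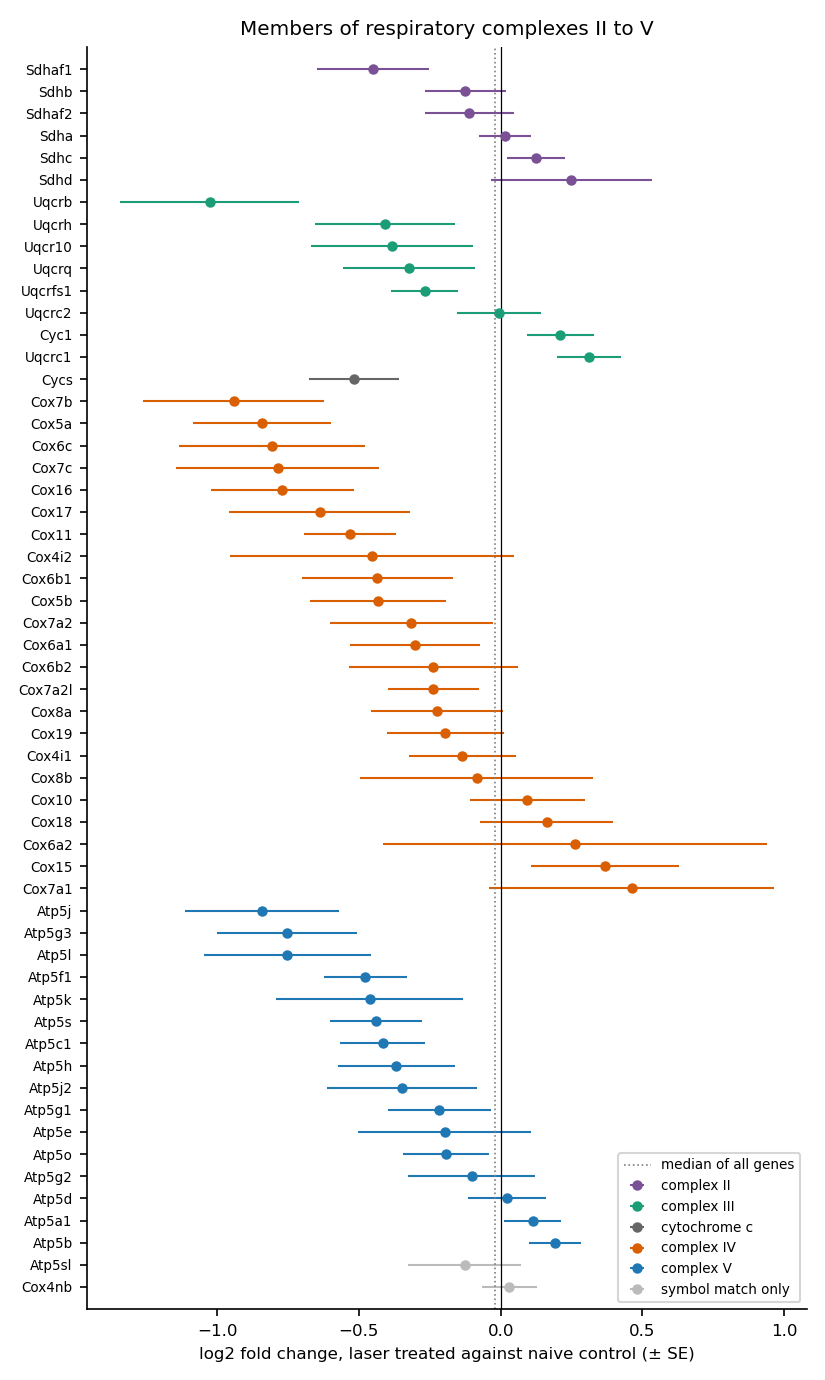
Log2 fold change after laser for each of the 56 members, with its standard error as a bar, grouped by complex and sorted within it. Complex II lies around 0, while the points of complexes III, IV and V reach from -1.03 for Uqcrb to 0.46 for Cox7a1.

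Before single genes are described, 3 libraries need to be named. Naïve control library 6 was the lowest of its group in 34 of the 56 members and in 19.6% of all genes. Laser treated library 4 was the lowest of its group in 39 members, and laser treated library 5 was the highest in 38, beside 24.9% and 21.1% of all genes. The totals of the 11 libraries ranged from 25700881 to 38755994 counts, and the smallest count of any member in any library was 28. The 10 defining RPE markers looked for, such as Rpe65, were all in the table. They summed to between 76851 and 130454 CPM, the counts scaled to library size, in a library. Best1, 1 of the 10, was near the floor, with means of 1.20 CPM in naïve controls and 0.706 CPM after laser. Photoreceptor markers, which come from neural retina, summed to between 4239 and 23367 CPM. Among the laser treated libraries 1 to 5 the sum was 4495, 5944, 19510, 20184 and 4239 CPM. Among the naïve control libraries 1 to 6 it was 19535, 11001, 23367, 6985, 9007 and 6284 CPM. Its part in the values of the members was not tested. Because whole tissue was sequenced, fewer cells of a type and less RNA per cell cannot be told apart.

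The level of each complex differed in how it moved across the libraries. The members of complex II summed to 1032 ± 43.1 CPM in naïve controls (SD, n = 6) and 1019 ± 39.9 CPM after laser (n = 5). Complex III summed to 2501 ± 361 CPM and 1958 ± 450 CPM, or 78.3% of control. For complex IV the sums were 3245 ± 680 CPM and 2372 ± 964 CPM, or 73.1% of control, and for complex V 6664 ± 609 CPM and 5474 ± 1120 CPM, or 82.1%. The ranges of the groups overlapped in all 4 complexes. Without laser treated library 5 the percentages of complexes III, IV and V were 71.2%, 60.7% and 76.8%, and that of complex II was 97.9%. Without naïve control library 6 they were 74.7%, 67.8% and 79.7%, and 99.4% for complex II. Members lower at an unadjusted p under 0.05 numbered 34 without laser treated library 5 and 21 without naïve control library 6, beside 8.79% and 9.71% of all genes.

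**Figure D2:**
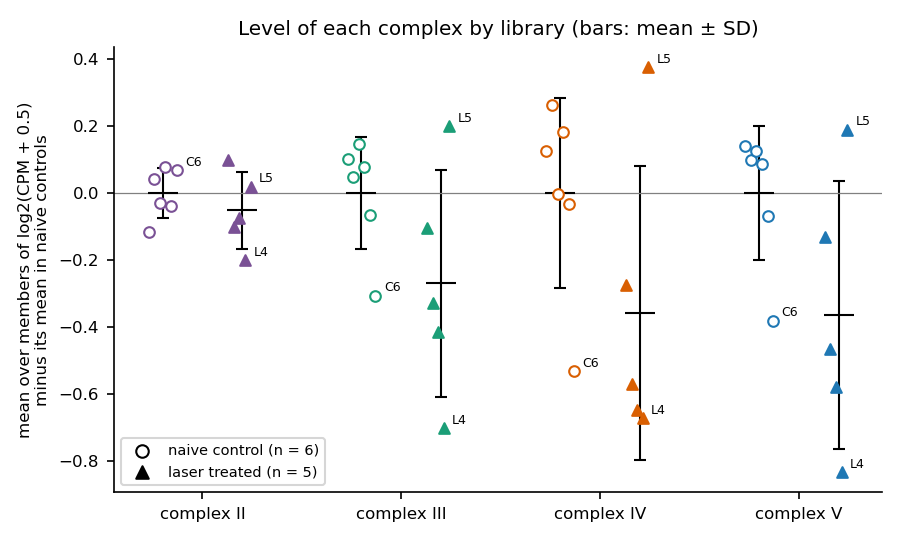
Mean over the members of each complex of log2(CPM + 0.5) minus its mean in the naïve controls (vertical axis), with open circles for naïve control and filled triangles for laser treated libraries, and bars for mean ± SD. In complexes III, IV and V naïve control library C6 lies below the other controls and laser treated library L5 above the other treated libraries, whereas complex II stays between -0.20 and 0.10 in all 11 libraries.

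Complex II was the complex with the least spread. Sdha, the flavoprotein that oxidises succinate, had 520 CPM in its lowest, 574 CPM in its median and 591 CPM in its highest naïve control library. The laser treated libraries 1 to 5 had 529, 615, 554, 629 and 544 CPM, so none lay below the controls, and libraries 2 and 4 lay above every control. Its log2 fold change was 0.02 ± 0.09 (SE). Sdhb, the iron-sulphur subunit, ranged from 232 to 305 CPM around a median of 273 CPM in the controls and had 307, 244, 211, 185 and 304 CPM after laser. Laser treated libraries 3 and 4 were below every control in Sdhb and library 1 was above, and the log2 fold change was -0.12 ± 0.14. The membrane anchors Sdhc and Sdhd had log2 fold changes of 0.12 ± 0.10 and 0.25 ± 0.28. Sdhaf2, which helps attach the flavin to Sdha, had one of -0.11 ± 0.16. Sdhaf1, which serves the iron-sulphur clusters of Sdhb, was the member of complex II with the smallest p. It had 17.7, 21.8 and 31.1 CPM in the lowest, median and highest control and 17.5, 13.7, 18.0, 13.6 and 20.2 CPM after laser, so 3 of the laser treated values lay below every control. The log2 fold change of Sdhaf1 was -0.45 ± 0.20, with an adjusted p of 0.290 in edgeR.

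Within complex III all 4 small subunits had a log2 fold change under 0 (median -0.40), and the 4 core members had a median of 0.10. With the trend on transcript length taken out these medians were -0.17 and 0.07, with Uqcrh at -0.0041 and Uqcr10 at 0.08. The difference between small subunits and core was not tested. Uqcrb (chr13:66900617-66905378 on GRCm38, minus strand), a small subunit on the matrix side, ranged from 479 to 1344 CPM in the naïve controls, with a median of 1093 CPM. After laser it had 562, 373, 362, 267 and 911 CPM. Libraries 2, 3 and 4 lay below every control, and library 5 lay among the controls. The log2 fold change of Uqcrb was -1.03 ± 0.32, which was the lowest of all members, with an adjusted p of 0.181 in edgeR and 0.0216 in DESeq2. The hinge protein gene Uqcrh, Uqcrq and Uqcr10 had log2 fold changes of -0.41, -0.32 and -0.38, none with an unadjusted p under 0.05.

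The core of complex III showed both directions. Uqcrc1 (chr9:108936633-108949623, plus strand), a core protein, had 397, 445 and 562 CPM in the lowest, median and highest naïve control and 508, 646, 578, 560 and 522 CPM after laser. Of the 6 controls, 5 lay below every laser treated library, and only naïve control library 6 reached into the treated range. Its log2 fold change was 0.31 ± 0.11, with an adjusted p of 0.219 in edgeR. Cyc1, the cytochrome c1 of the complex, stood at 0.21 ± 0.12 and Uqcrc2, the other core protein, at -0.01 ± 0.15. Uqcrfs1, the Rieske iron-sulphur protein that hands electrons to Cyc1, ranged from 203 to 242 CPM in the controls around a median of 222 CPM and had 207, 182, 183, 141 and 210 CPM after laser. Of the treated libraries, 3 were below every control, and the log2 fold change was -0.27 ± 0.12, with an adjusted p of 0.293 in edgeR. With a trend on GC content, the share of G and C bases, taken out, Uqcrc1 stood at 0.04 (unadjusted p = 0.689 in edgeR). Cyc1, Uqcrc2 and Uqcrfs1 then stood at -0.0069, 0.23 and -0.17. In that fit 0 of 56 members were higher at an unadjusted p under 0.05, beside 3.82% of all genes.

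Cytochrome c carries electrons from complex III to complex IV. Its gene Cycs (chr6:50562563-50566538, minus strand) had 97.6, 118 and 133 CPM in the lowest, median and highest naïve control. The laser treated libraries had 81.5, 70.6, 71.3, 68.0 and 121 CPM, so 4 of 5 were below every control and library 5 was inside their range. The log2 fold change of Cycs was -0.52 ± 0.16, with adjusted p-values of 0.179 in edgeR and 0.0511 in DESeq2. Without laser treated library 5 it was -0.70. With the GC trend taken out it was -0.16 (unadjusted p = 0.295 in edgeR).

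Complex IV had the largest list and the widest range. Of its 16 subunit genes, 14 had a log2 fold change under 0, and their median was -0.31. With the length trend taken out 8 were under 0 and the median was -0.02. Cox5a (chr9:57521274-57532426, plus strand), a subunit on the matrix side, had 155, 248 and 348 CPM in the lowest, median and highest naïve control and 176, 122, 116, 89.5 and 220 CPM after laser. Libraries 2, 3 and 4 were again below every control. Its log2 fold change was -0.84 ± 0.24, with adjusted p-values of 0.177 in edgeR and 0.0235 in DESeq2. Cox7b, a small membrane subunit (chrX:106015700-106022450, plus strand), ranged from 241 to 594 CPM around a median of 563 CPM in the controls and had 305, 196, 177, 131 and 479 CPM after laser. Libraries 2, 3 and 4 lay below every control, and the log2 fold change was -0.94 ± 0.32, with adjusted p-values of 0.204 in edgeR and 0.0360 in DESeq2. Cox6c and Cox7c, further small membrane subunits, had log2 fold changes of -0.81 and -0.79, each with an unadjusted p under 0.05.

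The 7 assembly genes of complex IV went both ways around a median of -0.20. Cox11, which helps insert copper into the catalytic subunit, had 57.8, 75.5 and 112 CPM in the lowest, median and highest naïve control and 55.9, 45.9, 56.2, 57.7 and 60.9 CPM after laser. Laser treated libraries 1, 3 and 4 lay just under the lowest control and library 2 further below it, whereas library 5 lay among the controls. The log2 fold change of Cox11 was -0.53 ± 0.16, with adjusted p-values of 0.179 in edgeR and 0.0498 in DESeq2. Cox16, another factor for copper, ranged from 22.2 to 59.5 CPM around 44.8 CPM in the controls and had 27.7, 15.7, 25.5, 21.6 and 35.3 CPM after laser. Its log2 fold change was -0.77 ± 0.25, with an adjusted p of 0.194 in edgeR, and the copper chaperone gene Cox17 stood at -0.64 ± 0.32. Cox15 and Cox10, which make the haem of the enzyme, had log2 fold changes of 0.37 ± 0.26 and 0.09 ± 0.20. Cox18, which inserts a mitochondrially coded subunit, and Cox19 stood at 0.16 and -0.20.

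In complex V the 5 members counted here as the head had a median log2 fold change of 0.02. These are the catalytic alpha and beta subunits with the gamma, delta and epsilon subunits, which form the central stalk. The word stalk alone stands here for the peripheral stalk. The stalk, ring and small membrane members had medians of -0.42, -0.22 and -0.46, and all 10 of them were under 0. With the length trend taken out 7 of these 10 were under 0, Atp5o, Atp5g2 and Atp5k stood at 0.25, 0.22 and 0.05, and the medians of head, stalk, ring and small membrane members were 0.12, -0.25, -0.22 and -0.16. Within the libraries whose files carry the label R2, described further on, the small membrane median was 0.04 and 1 of its 3 members was under 0. With the GC trend taken out the medians of head, stalk, ring and small membrane members were -0.25, -0.38, -0.35 and -0.60. In that fit 3 of the 5 head members were under 0. Atp5b, the catalytic beta subunit, had 1191, 1235 and 1345 CPM in the lowest, median and highest naïve control and 1618, 1416, 1441, 1295 and 1396 CPM after laser. Of the treated libraries, 4 lay above every control, and the log2 fold change was 0.19 ± 0.09, with an adjusted p of 0.331 in edgeR. Its partner in the head, the alpha subunit gene Atp5a1, stood at 0.11 ± 0.10. The gamma subunit gene Atp5c1, whose product turns inside the head, stood at -0.42 ± 0.15, with an adjusted p of 0.217 in edgeR.

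Atp5j (chr16:84827866-84835625, minus strand), which codes for coupling factor 6 of the stalk, ranged from 711 to 1645 CPM in the naïve controls around a median of 1284 CPM. After laser it had 791, 587, 520, 370 and 1162 CPM, with libraries 2, 3 and 4 below every control. The log2 fold change of Atp5j was -0.84 ± 0.27, with adjusted p-values of 0.191 in edgeR and 0.0330 in DESeq2. Atp5f1, the b subunit of the stalk (chr3:105942698-105960099, minus strand), had 634, 706 and 774 CPM in the lowest, median and highest control and 682, 418, 480, 371 and 568 CPM after laser. Here library 5 also lay below every control, as did libraries 2, 3 and 4, and library 1 did not. Its log2 fold change was -0.48 ± 0.15, with adjusted p-values of 0.180 in edgeR and 0.0393 in DESeq2. The other stalk genes, Atp5h and Atp5o, stood at -0.37 and -0.19. The annotation holds a second gene named Atp5o that overlaps the one in the table, so its reads are uncertain. The small membrane genes Atp5l, Atp5k and Atp5j2 stood at -0.75, -0.46 and -0.35, and Atp5s, known as factor B, at -0.44. Atp5e and Atp5d of the head stood at -0.20 and 0.02.

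**Figure D3:**
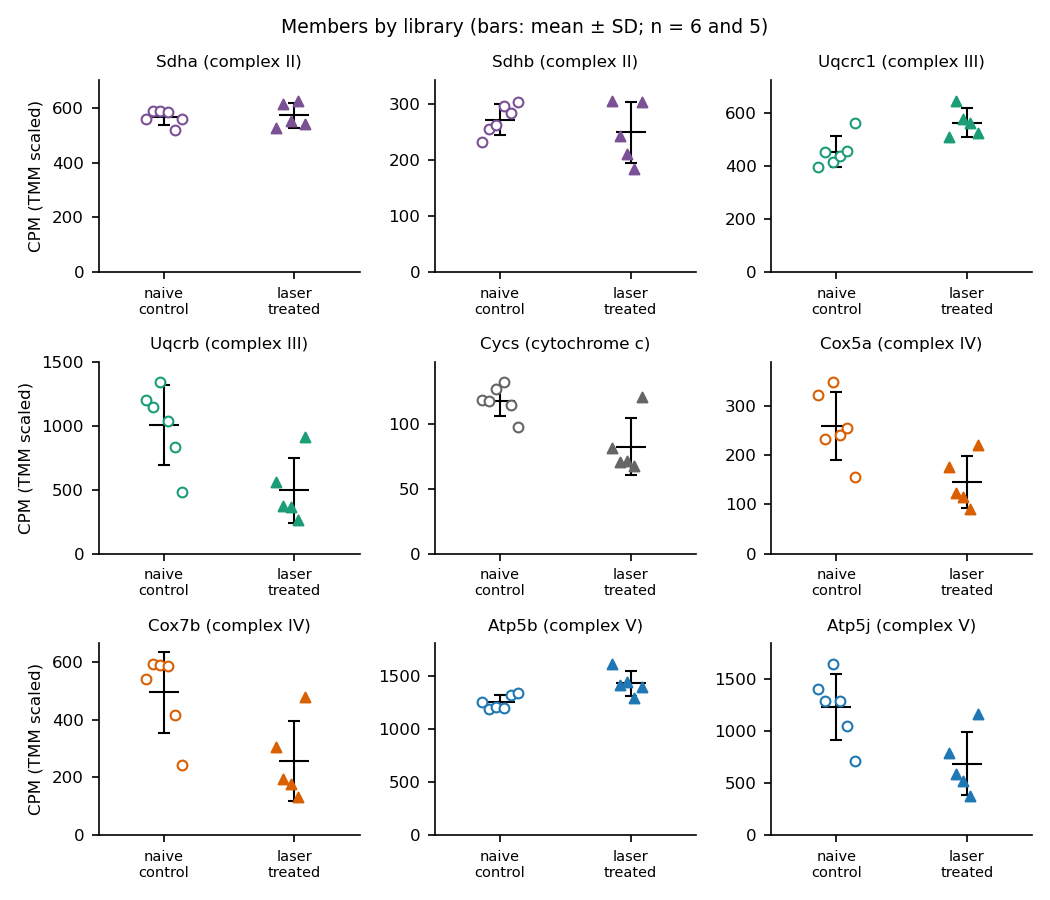
CPM of 9 members in each library, with open circles for naïve control (n = 6), filled triangles for laser treated libraries (n = 5) and bars for mean ± SD; the vertical axes start at 0. Uqcrb, Cycs, Cox5a, Cox7b and Atp5j have 1 treated library, library 5, well above the other 4, and Sdha and Atp5b do not.

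The c ring of complex V is coded by 3 genes that give the same mature protein, and their shares of the summed CPM per kilobase changed between the groups. Atp5g3 made up 91.9% ± 1.34 (SD) of the sum in naïve controls and 88.3% ± 1.34 after laser. Atp5g1 went from 5.54% ± 1.16 to 7.66% ± 1.00, and Atp5g2 from 2.59% ± 0.254 to 4.01% ± 0.443. The share of Atp5g2 lay between 2.12% and 2.80% in the controls and between 3.45% and 4.36% after laser, with no overlap. An exact two-sided permutation test gave p = 0.00216 for Atp5g2, the smallest that 6 against 5 libraries allow, p = 0.00649 for Atp5g3 and p = 0.0130 for Atp5g1. Adjusted over the 10 isoform shares tested, these were 0.0216, 0.0325 and 0.0433 (exact permutation tests). The 3 shares add up to the whole and are not independent of each other. The counts behind them moved as follows: Atp5g3 ranged from 386 to 778 CPM around 620 CPM in the controls and had 482, 305, 299, 208 and 566 CPM after laser, with a log2 fold change of -0.75 ± 0.25 and adjusted p-values of 0.195 in edgeR and 0.0395 in DESeq2. Atp5g1 and Atp5g2 stood at -0.22 ± 0.18 and -0.10 ± 0.23. These shares rest on the length of the chosen transcripts, which is 731 bases for Atp5g2, 714 for Atp5g3 and 4715 for Atp5g1. From CPM not divided by length, Atp5g3 made up 70.3% in naïve controls and 61.9% after laser, Atp5g1 27.7% and 35.3%, and Atp5g2 2.02% and 2.87%, with adjusted p-values of 0.0433, 0.0433 and 0.0216 (exact permutation tests). From the coverage of the assembled transcripts the shares were 93.9% and 90.9% for Atp5g3, 5.88% and 8.82% for Atp5g1 and 0.195% and 0.245% for Atp5g2, and none of the 3 passed (adjusted p = 0.703, 0.703 and 0.772, exact permutation tests). Atp5g1 and Atp5g2 each have 4 pseudogenes of at least 90% identity over at least 200 bases, with which reads may be shared.

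Complex IV has several subunits with a common and a tissue-restricted isoform. Cox4i1 made up 99.2% ± 0.395 (SD) of the Cox4 pair in the naïve controls and 99.3% ± 0.211 after laser, and Cox4i2, known from lung, the rest. Cox6b1 held 88.5% and 87.3% of its pair, with Cox6b2, known from testis, as the partner. Log2 fold changes were -0.14 for Cox4i1, -0.45 for Cox4i2, -0.44 for Cox6b1 and -0.24 for Cox6b2. Cox7a2 had a mean of 32.6% of the Cox7a trio in naïve controls and of 27.7% after laser (exact permutation p = 0.0368, adjusted over the 10 shares 0.0920), which did not pass the adjustment. The counts and the assembled transcripts gave different levels for Cox7a2, which by coverage made up 87.2% of the trio in controls and 81.3% after laser. Cox7a1 made up 23.2% of the trio in controls by counts and 0.0683% by coverage. By coverage Cox6b1 made up 35.5% ± 45.1 (SD) of its pair in controls and 33.7% ± 42.4 after laser. Between control libraries this share of Cox6b1 ranged from 0% to 99.7%. None of the other 6 isoform shares outside the c ring had an adjusted p under 0.05 in the exact permutation tests.

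The isoforms known from heart and skeletal muscle stood apart by library rather than by group. Cox7a1 had 4.30, 6.88 and 10.9 CPM in the lowest, median and highest naïve control and 5.92, 5.65, 3.74, 5.44 and 28.9 CPM after laser. Laser treated library 5 was far above all other libraries, and the log2 fold change of Cox7a1, 0.46 ± 0.50, became -0.47 without it. Cox6a2 ranged from 0.904 to 11.6 CPM in the controls and had 4.37, 5.57, 0.799, 6.79 and 20.3 CPM after laser, with a log2 fold change of 0.26 that became -0.52 without library 5. The 13 skeletal muscle markers, among them actin, myosin and troponin genes, summed to between 68.2 and 734 CPM in the controls and between 76.4 and 1080 CPM after laser. They were lowest in naïve control library 3 and laser treated library 3, where Cox6a2 was lowest too, and highest in laser treated library 5. Laser treated library 2 had nearly as high a sum, at 956 CPM, but 5.65 CPM of Cox7a1 and 5.57 CPM of Cox6a2. Cox8b ranged from 33.2 to 115 CPM in the controls and had 36.6, 38.6, 38.2, 34.7 and 146 CPM after laser. It was high in naïve control library 4 and laser treated library 5. These 2 also had the highest sums of the 5 genes listed as melanocyte markers, at 2729 and 2829 CPM. The largest of the 5 was the pigment gene Dct, which cannot be assigned to melanocytes alone in this tissue. Naïve control library 4 was also the highest control in the fibroblast, cardiac or smooth muscle and Schwann cell lists, at 463, 265 and 529 CPM. Laser treated library 5 was not the highest treated library in those. The part of other tissue in these values was not tested. The partners Cox6a1, Cox7a2 and Cox8a, known from liver and most other tissues, had log2 fold changes of -0.30, -0.31 and -0.22, and Cox7a2l, a factor for supercomplexes, one of -0.24.

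**Figure D4:**
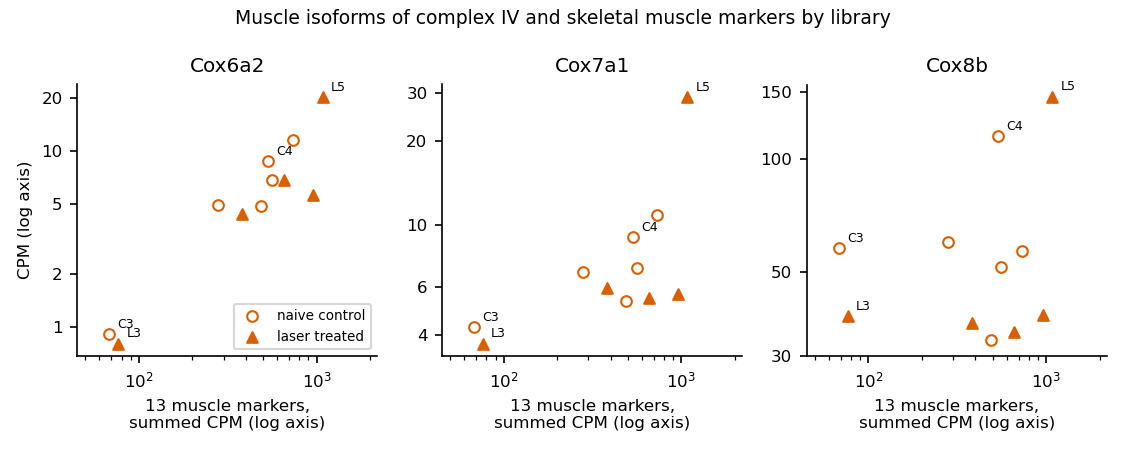
CPM of Cox6a2, Cox7a1 and Cox8b (vertical, log axis) against the summed CPM of 13 skeletal muscle markers (horizontal, log axis) in each of the 11 libraries, with open circles for naïve control and triangles for laser treated. Laser treated library L5 is at the top right in all 3 plots, at 20.3, 28.9 and 146 CPM.

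Transcript length moved with the fold change. Genes other than the members whose chosen transcript was at most 600 bases long had a median log2 fold change of -0.42, and 84.2% of these 253 genes were under 0. Between 600 and 1000 bases this median was -0.28, between 1000 and 2000 bases 0.00 and above 2000 bases 0.02. The members followed with medians of -0.34 (n = 14), -0.37 (n = 13), -0.24 (n = 15) and -0.15 (n = 12). Members lower at an unadjusted p under 0.05 were 4 of 14 in the shortest band, beside 12.3% of its other genes, and 3 of 13 in the next, beside 16.7%. They were 6 of 15 between 1000 and 2000 bases, beside 9.11%, and 3 of 12 above 2000 bases, beside 6.39%. The limits of these bands were set after the data were seen. The complexes differ in this respect, since the median transcript length was 2695 bases in complex II, 1442 in complex III, 733 in complex IV and 870 in complex V, against 2911 bases over all genes.

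In the fit with a smooth trend on transcript length taken out of every library, which brought the medians of complexes III, IV and V close to 0, 32 of 56 members were under 0, and 15 were lower and 2 higher at an unadjusted p under 0.05. Of all genes in that fit, 50.3% were under 0, 8.05% were lower and 7.39% higher. The lowest values were those of Cox16 at -0.84, Cox7b at -0.80, Cox17 at -0.68, Uqcrb at -0.62, Atp5j at -0.59, Cycs at -0.58, Sdhaf1 of complex II at -0.53, Atp5f1 at -0.50 and Cox5a at -0.48, and of these only Cox17 had no unadjusted p under 0.05. The short subunits Cox8a, Cox6a1 and Cox4i1 had values above 0, at 0.20, 0.11 and 0.15. Uqcrc1 stood at 0.28. This fit rests on the length of 1 chosen transcript per gene, such as 3690 bases for Cox17, 3123 for Cycs, 2007 for Cox16 and 1001 for Cox7b. Whether the reads came from the chosen transcripts was not tested, and for a gene read from a shorter transcript the correction would be too small. What made short transcripts lower was not tested.

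**Figure D5:**
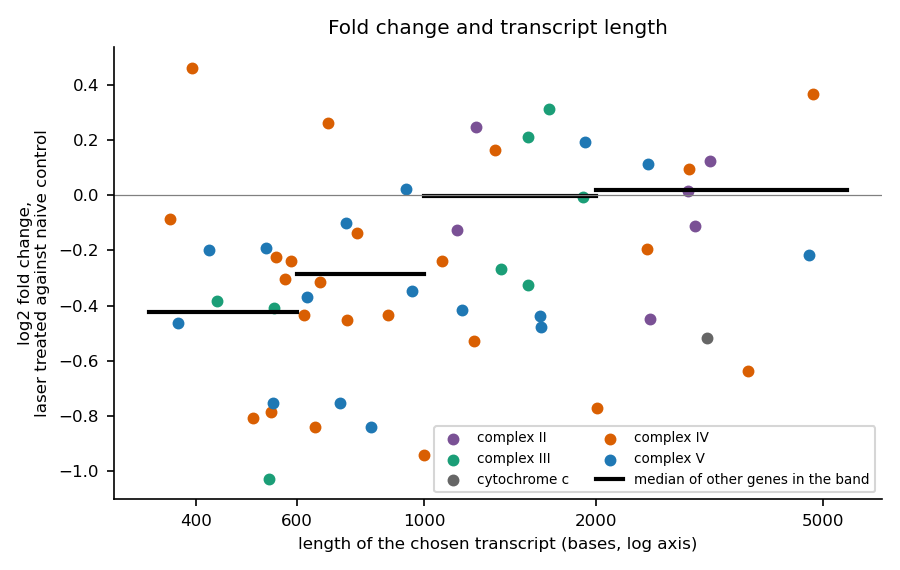
Log2 fold change after laser (vertical) by length of the chosen transcript in bases (horizontal, log axis) for 54 members, coloured by complex, with black lines for the median of all other genes in each of 4 length bands. The black line rises from -0.42 for the shortest transcripts to 0.02 for the longest, and the shortest members belong to complexes III, IV and V.

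The first line of the deposited transcript files carries the label R1 for naïve control libraries 1 to 3 and laser treated libraries 1 and 2, and R2 for the others, without saying what it stands for. Within R1 the medians of complexes II, III, IV and V were 0.14, -0.40, -0.56 and -0.39, and 22 of 56 members were lower at an unadjusted p under 0.05, beside 9.42% of all genes. Within R2 they were -0.08, -0.13, -0.10 and -0.19, and 1 member was, beside 3.3% of all genes. Laser treated library 5 and naïve control library 6 both carry R2. In a fit over all libraries with the label as a covariate the medians were -0.04 for complex II, -0.28 for complex III, -0.29 for complex IV and -0.34 for complex V.

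The levels of the members per length were compared by CPM per kilobase of the chosen transcript, as the mean over all 11 libraries ± SD. The highest were Uqcrb in complex III at 1449 ± 715, Atp5j in complex V at 1214 ± 508, Cox8a in complex IV at 843 ± 247 and Sdhb in complex II at 230 ± 36.3. Uqcrb was above Atp5j in 10 of 11 libraries, all but laser treated library 2, and Atp5j was above Cox8a in 10 of 11, all but laser treated library 4. In the assembled transcripts of the same libraries, coverage per length gave another order for part of the members. Sdhd was the 53rd of 54 members by counts, at 4.77 CPM per kilobase, and the 3rd by coverage. Cox7a2 was the 42nd and the 7th, Sdhb the 21st and the 49th, and Atp5o, Atp5e and Atp5k the 19th, 25th and 18th and the 50th, 51st and 48th. In all, 18 of 54 members moved by more than 10 ranks, so the order of levels depends on which of the deposited files is read. By coverage Cox8a was the highest of all members and Sdhd the highest of complex II.

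The promoters of the members were searched for letters that 4 known regulators of respiratory genes bind. These regulators are NRF1, GABPA (an ETS factor), YY1 and the oestrogen-related receptor ERR alpha. RefSeq promoter windows of GRCm38.p6, from 250 bases before to 50 bases after the start, were at hand for 42 of the 54 members that code for parts of the complexes, their assembly factors or cytochrome c. On either strand, GCGCANGCG (NRF1) was in 12 of them (28.6%), beside 14.3% of the 11290 genes of the count table with a promoter and 7.03% of all promoters. CCGGAAG (GABPA) was in 16 (38.1%), beside 18.4% and 9.93%. AAGATGGCG (YY1) was in 3 (7.14%), beside 3.2% and 1.6%, and AAGGTCA (ERR) in 5 (11.9%), beside 4.02% and 5.38%. For NRF1, 2 of 5 promoters in complex II, 1 of 4 in complex III, 1 of 17 in complex IV and 7 of 15 in complex V held the letters. For GABPA it was 4 of 5 in complex II, 1 of 4 in complex III, 6 of 17 in complex IV and 5 of 15 in complex V.

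To show such letters in place, the 100 bases before the start are printed for Cycs and for the member of each complex with the smallest p among those with a match in these bases, 5′ to 3′ on the gene's strand, with the matches in capitals. All 5 lie on the minus strand of GRCm38.p6. They are chr9:50603850-50603949 for Sdhd, chr4:116075071-116075170 for Uqcrh, chr6:50566570-50566669 for Cycs, chr12:81485138-81485237 for Cox16 and chr2:73911327-73911426 for Atp5g3.
Sdhd: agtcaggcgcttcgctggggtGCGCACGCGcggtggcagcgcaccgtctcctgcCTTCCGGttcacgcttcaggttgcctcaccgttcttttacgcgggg
Uqcrh: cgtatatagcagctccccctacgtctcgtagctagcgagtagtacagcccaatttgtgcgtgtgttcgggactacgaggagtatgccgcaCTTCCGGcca
Cycs: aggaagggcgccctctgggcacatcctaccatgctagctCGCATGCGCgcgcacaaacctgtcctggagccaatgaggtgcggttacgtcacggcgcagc
Cox16: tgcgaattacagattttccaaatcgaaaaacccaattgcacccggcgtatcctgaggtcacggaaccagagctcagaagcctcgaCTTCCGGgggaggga
Atp5g3: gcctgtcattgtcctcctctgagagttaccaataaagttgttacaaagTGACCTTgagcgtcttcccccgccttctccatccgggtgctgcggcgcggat
The capitals mark NRF1 letters 79 bases before the start in Sdhd and 61 in Cycs, GABPA letters 46 bases before it in Sdhd, 10 in Uqcrh and 15 in Cox16, and ERR letters 52 bases before it in Atp5g3. Sdhd, with matches for both factors, had a log2 fold change of 0.25, Uqcrh one of -0.41, Cycs one of -0.52, Cox16 one of -0.77 and Atp5g3 one of -0.75.

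The regulators themselves were measured as a list of 11 genes. Of these, 4 had a log2 fold change under 0, beside 51.5% of all genes, with a list median of 0.08. Esrra, which codes for ERR alpha, stood at 0.44 ± 0.18 (unadjusted p = 0.0310, adjusted p = 0.264 in edgeR), and Tfam, which packs and copies mitochondrial DNA, at -0.47 ± 0.19 (unadjusted p = 0.0272, adjusted p = 0.252 in edgeR). Nrf1, Gabpa and Yy1 stood at 0.09, 0.46 and 0.06, with no unadjusted p under 0.05. Further assembly and associated factors of complexes III to V, outside the symbol rule, numbered 19, with a list median of -0.21. Under 0 were 13 of them, and 5 were lower at an unadjusted p under 0.05, against 51.5% and 7.68% of all genes. These 5 were Ndufa4, a subunit found with complex IV, at -0.84, Lyrm7 of complex III at -0.86, Higd1a of complex IV at -0.33, and Tmem70 and Usmg5 of complex V at -0.31 and -0.82. With the length trend taken out they stood, in the same order, at -0.47, -0.93, -0.41, -0.34 and -0.35.

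The count table lists 0 of the 6 mitochondrially coded partners of these complexes that were looked for. The transcript files hold an assembled transcript that covers mt-Cytb, the cytochrome b of complex III, but it is not the level of this gene alone. In 10 of 11 libraries it begins at position 11742 of the mitochondrial genome, is 4558 or 4557 bases long against 1144 for mt-Cytb, and takes in mt-Nd5 and mt-Nd6 of complex I as well. The level of this stretch was 3152, 4094 and 4961 TPM in the lowest, median and highest naïve control and 4084, 2612, 3767, 2055 and 3436 TPM after laser. Laser treated libraries 2 and 4 lay below every control. The means were 4154 ± 702 TPM and 3191 ± 839 TPM (SD, n = 6 and 5), with p = 0.0628 in an exact two-sided permutation test. In laser treated library 3 the assembled transcript is 9295 bases long and begins at position 7000, and without that library the test gave p = 0.0619 (exact permutation, n = 6 and 4).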

How the data were processed

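RNA of RPE/choroidal tissue was pre-amplified with SmartSeq v4, which copies transcripts from small inputs, and made into libraries with Nextera XT. The authors deposited raw counts per gene for each of 11 libraries, without normalization or pooling. The submitters' processing notes name STAR 2.5.3a, featureCounts 1.5.3, StringTie 1.3.3 and edgeR 3.22.3, with the builds mm10 and GRCm38. In the same table the authors deposited log2 fold changes, F statistics, p-values and FDR of their own comparison, which were not used. For each library they also deposited assembled transcripts with coverage and TPM, all of 1 exon, used here only for mt-Cytb and for levels per length. Counting did not state strand, so overlapping antisense genes cannot be told apart.

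Members and lists were chosen with earlier results of these data known. Counts were compared with edgeR 4.0.16 in R 4.3.3 (TMM, filterByExpr, which removed 0 genes, robust quasi-likelihood test, Benjamini-Hochberg adjustment over all 14602 genes). All 56 members passed the filter. The common biological coefficient of variation was 0.58. Each standard error is the size of the log2 fold change divided by the square root of the F statistic of edgeR's test. It reflects the spread between libraries. CPM are TMM scaled. Lists are described by counts and medians, with no test. Shares and TPM were compared by exact two-sided permutation tests (Python 3.11.15). Positions and 1 coding transcript per gene were taken from GENCODE M21 on GRCm38, which gave length and GC content for 97.6% of genes. Pseudogenes were found with BLAST 2.17.0 (90% identity over 200 bases), and 19 members have at least 1. Among them are Atp5l with 13, Cycs with 8, Atp5h with 6, and Uqcrb and Cox7b with 4 each. Reads of such genes may be split. Named genes were the 3 with the smallest p and the 1 with the highest CPM per kilobase in each complex, all of complex II, Cycs, isoforms and members called by DESeq2. Length bands were set after seeing the data.

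Alternatives were DESeq2 1.42.0, limma 3.58.1 voom with sample weights, upper quartile normalization, no filter, a minimum of 10 counts, no robust estimation, a block for replicate numbers, correction of GC content by loess (span 0.3), both together, the header label as a covariate or within labels, each library left out, and, added after seeing the data, removal of a trend on transcript length and c ring shares from CPM not divided by length or from assembled coverage. On simulated counts of 14602 genes with 200 changed 4-fold between the groups, edgeR called 57.5% of the changed genes and DESeq2 66.5%. Of their calls, 4.17% and 24.4% were unchanged genes. The planted changes were larger than that of any member. Genes were drawn independently, without shifts of whole libraries and without a trend on transcript length. These shares therefore do not give the power or the error rate for the members.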

Additional observations from a re-analysis of the deposited data

Results flagged for a closer look

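Of 68 sets of values, named members and complex sums in each group, 8 had a library whose gap to the nearest other library took up an unusually large part of the group's range (Dixon's test at 95%, which chance meets in about 1 of 20 sets). Laser treated library 5 was the highest of its group by this measure in Cox7a1 at 28.9 CPM, Cox7a2 at 25.6 CPM, Cox8b at 146 CPM and Cycs at 121 CPM. Naïve control library 6 was the lowest of its group in Cox6a1 at 188 CPM and Cox7a2 at 10.4 CPM, and the highest in Uqcrc1 at 562 CPM. Naïve control library 4 was the highest of its group in Cox8b at 115 CPM. What set these libraries apart was not tested.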

How the results depend on the processing

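The count of 0 members at an adjusted p under 0.05 was the same in every alternative run except DESeq2, which called 7. Members lower at an unadjusted p under 0.05, 16 in edgeR, numbered 10 with the GC trend removed and 1 within label R2, while the share of all genes went from 7.68% to 4.14% and 3.3%. With 1 library left out they numbered from 11 to 34, with 11 without laser treated library 2 (5.94% of all genes) and 34 without laser treated library 5 (8.79%). By CPM, members whose groups did not overlap numbered from 0 to 4 with 1 library left out. There were 4 without naïve control library 6, 2 without laser treated library 1 or 5 and 1 without naïve control library 5 or laser treated library 4. The share of all genes was not counted with a library left out, so these counts cannot be read as a result about the members. The median log2 fold change of complex III lay between -0.47 and -0.21 with 1 library left out, and was -0.13 within label R2 and -0.038 with the length trend removed. That of complex V was -0.079 with the length trend removed. That of complex II was 0.10 with the GC trend removed and 0.14 within label R1.

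Naïve control and laser treated libraries share replicate numbers, and the deviations of same-numbered libraries correlated at between -0.01 and 0.28. The highest were 0.28 for the libraries numbered 3 and 0.12 for those numbered 2. These values were not compared with those of differently numbered libraries, so they cannot decide whether libraries of the same number belong together. With the replicate block 20 members were lower at an unadjusted p under 0.05 (8.79% of all genes) and the medians of complexes II, III, IV and V were -0.05, -0.41, -0.49 and -0.49. With the block and the GC trend removed the medians of complexes II and IV were 0.12 and -0.61.

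Some of the 30 named genes, none called by edgeR, changed sign. With the length trend removed this held for Atp5g2 at 0.22, Cox4i1 at 0.15, Cox6a1 at 0.11, Cox6b2 at 0.12, Cox7a2 at 0.019, Cox8a at 0.20, Cox8b at 0.35 and Sdha at -0.072. Within label R2 it held for Atp5g2 at 0.014, Cox7a2 at 0.0059, Cox8a at 0.021 and Cox8b at 0.16. Within label R1 it held for Cox6a2 at -0.21, Cox7a1 at -0.32, Sdhaf2 at 0.12 and Sdhb at 0.16. Sdhaf2 stood at 0.075 with the GC trend removed and at 0.11 with the block added. Cox6a2 and Cox7a1 were -0.51 and -0.074 with voom, -0.057 and -0.054 with the replicate block, and -0.17 and -0.25 with the block and the GC trend removed. With 1 library left out, Atp5g2 ranged from -0.23 to 0.0081, Cox6a2 from -0.52 to 0.55, Cox7a1 from -0.47 to 0.67, Cox8b from -0.75 to 0.18 and Sdha from -0.035 to 0.044. The causes were not tested. The differences in the c ring shares kept their directions with any 1 library left out, at -3.99 to -3.18 percentage points for Atp5g3, 1.86 to 2.47 for Atp5g1 and 1.32 to 1.56 for Atp5g2, with unadjusted exact permutation p-values from 0.00476 to 0.0286. From assembled coverage, an alternative chosen after seeing the data, they were -2.98, 2.93 and 0.0496 points and did not pass.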
